A study of Mus musculus with 8 samples.

Results

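The 10 genes described here, Sox1, Sox3, Pax6, Irx3, Irx5, Nkx6-1, Neurog2, Hes3, Hes5 and Foxb1, are preneural and early spinal cord genes. They were picked by symbol, and each had a line among the 26171 genes of the deposited table. RNA came from the rear part of the mouse tail bud, presomitic mesoderm included, at embryonic day 8.5 with 4 to 5 somites. The labels describe 4 Epop knockout libraries and 4 wild-type libraries, 8 in all. The Epop protein is an accessory factor of the Polycomb complex PRC2, and the labels do not describe the knockout allele, the strain or whether embryos were pooled. Libraries were made by Smart-seq2, a method that copies whole polyadenylated transcripts. The table has no header, and 0 of its 8 value columns carry a name. The columns were therefore not assigned to a library or genotype, no Epop knockout against wild-type comparison was made, and the spread between columns holds both genotypes.

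The spinal cord forms from progenitors in the tail bud that can give either neural tissue or presomitic mesoderm. Cells that leave this pool for the neural plate come under SoxB1 transcription factors, and Hes repressors, many of them targets of Notch signalling, hold neural progenitors back from becoming neurons. As the neural tube closes, Pax6, Irx and Nkx6 factors divide it into zones along the dorsal to ventral axis, and proneural factors such as Neurog2 start neuron formation.

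Values are RPKM, that is, counts of reads divided by gene length and by a measure of sequencing depth, so levels can be set beside each other between genes. The value of 1 read was recovered from the decimals of the table, with 1240 genes above 0 in only 1 column left out, and the recovered reads summed to 44229899 to 54316808 reads per column, with a median of 51136337. Rn45s, the ribosomal RNA precursor, took 19.1% to 28.1% of them. Tail bud markers were present: all 10 genes of a list of tail bud and presomitic mesoderm markers had a median of at least 1 RPKM. RNA of other tissues was present too. A list of 4 extraembryonic endoderm markers summed to 651 RPKM in the lowest column and 2663 RPKM in the highest, and 6 blood and endothelium markers summed to 14.8 and 927 RPKM. In such bulk RNA, fewer cells of a type and less RNA per cell cannot be told apart. Nothing in the labels ties columns to separate embryos, so the p-values below measure only the spread between the 8 columns.

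Of the 10 genes, 5 had a median of at least 1 RPKM, against 41.6% of all genes in the table. These 5 were Hes5, Hes3, Foxb1, Irx3 and Sox3, and the other 5 fell below the filter of 0.5 RPKM used for measures of spread. Hes5, Hes3 and Foxb1 stood highest at a median of 10.2 to 16.5 RPKM, while Neurog2 and Sox1 were read from a median of at most 3.5 reads per column. The names of the group thus cover levels from clear expression to the limit of what these libraries could detect.

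The promoters of Hes5 and Irx3, whose levels moved together between columns, and of Sox1, which was at or near the limit of detection, are shown because they are the windows among these genes that hold a match to the RBPJ motif. Each is the RefSeq window of 300 bases, 250 before and 50 after the RefSeq start, in the GRCm38.p6 build. For Irx3 and Sox1 this start differs from that of GENCODE, at 91802067 and 12395295. The Irx3 window lies wholly inside the GENCODE gene, and most of the Sox1 window does. Capitals mark the core of the motif of RBPJ, the DNA-binding partner of Notch, searched as TGGGAA and as TTCCCA on the other strand. The window of Hes5 is chr4:154960673-154960972 on the plus strand, that of Irx3 is chr8:91801605-91801904 on the minus strand and that of Sox1 is chr8:12395269-12395568 on the plus strand.
Hes5: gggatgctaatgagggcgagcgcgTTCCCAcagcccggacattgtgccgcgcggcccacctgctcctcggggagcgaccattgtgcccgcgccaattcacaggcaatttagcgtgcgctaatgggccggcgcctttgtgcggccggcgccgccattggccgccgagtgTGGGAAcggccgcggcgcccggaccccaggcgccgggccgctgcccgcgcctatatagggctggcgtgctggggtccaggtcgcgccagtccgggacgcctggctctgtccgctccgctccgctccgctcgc
Irx3: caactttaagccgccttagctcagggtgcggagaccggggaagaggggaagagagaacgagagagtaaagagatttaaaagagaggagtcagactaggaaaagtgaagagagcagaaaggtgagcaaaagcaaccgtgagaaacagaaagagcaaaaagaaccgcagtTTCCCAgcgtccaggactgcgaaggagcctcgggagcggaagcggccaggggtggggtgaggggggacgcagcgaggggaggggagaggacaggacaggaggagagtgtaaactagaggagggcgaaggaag
Sox1: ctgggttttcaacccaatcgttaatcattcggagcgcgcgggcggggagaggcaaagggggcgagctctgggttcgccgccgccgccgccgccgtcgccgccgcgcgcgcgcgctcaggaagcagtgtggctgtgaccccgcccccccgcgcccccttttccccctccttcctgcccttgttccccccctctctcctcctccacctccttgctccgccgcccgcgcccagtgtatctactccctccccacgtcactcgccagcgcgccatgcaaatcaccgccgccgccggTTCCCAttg

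The Hes5 window held 41 CpG dinucleotides and the Sox1 window 37, while the Irx3 window held 14. The median over 32841 promoter windows of the same length was 7. RefSeq windows were matched for 6 of the 10 genes, as 7 windows in all because Pax6 has a pair of starts. Among the other 4 windows, Nkx6-1 held 40 CpG, the Pax6 windows 18 and 16, and Neurog2 10. Hes5, the gene with the highest level, and Sox1, the gene with the fewest reads, thus both had CpG-rich windows. The RBPJ core occurred in Hes5 at first bases -82 and -226 from the RefSeq start, in Irx3 at -82 and in Sox1 at 41. At least 1 match was found in 3 of the 7 windows, against 25.6% of all windows, and at least 2 matches, as in Hes5, were found in 3.78% of all windows. A match is a run of letters and does not show that the factor binds.

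Sox1 and Sox3 encode SoxB1 factors of neural progenitors. Sox3 (ENSMUSG00000045179.9, mm10 chromosome X, 60891366 to 60893430, minus strand) had a lowest value of 1.28 RPKM, a median of 3.35 RPKM and a highest of 4.00 RPKM, from 123 to 455 reads. Column 2 with 1.28 RPKM and column 6 with 1.88 RPKM stood below the other 6 columns, which lay between 2.97 and 4.00 RPKM. Sox1 (ENSMUSG00000096014.1, chromosome 8, 12395295 to 12400126, plus strand) reached at most 0.0638 RPKM, with a median of 0.0152 RPKM. It had 32 reads over all columns, 0 reads in columns 4 and 5, and at most 3 reads in 5 of the 8 columns. A count of 0 allows up to 3 reads, which over the 8 columns is 0.0133 to 0.0161 RPKM for Sox1, so in columns 4 and 5 absence cannot be told from expression below that range. Sox1 shares its strand and position with Sox1ot, a longer transcript with a median of 0.0890 RPKM, and reads from the shared part cannot be told apart.

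Irx3 and Irx5 are neighbouring Iroquois homeobox genes, 555.557 kilobases apart on chromosome 8, whose factors act in the patterning of the neural tube. Irx3 (ENSMUSG00000031734.13, 91798525 to 91802067, minus strand) had 4.36 RPKM in its lowest column, a median of 5.66 RPKM and 7.42 RPKM in its highest. The lowest was column 5 and the highest column 8, and the standard deviation (SD) on the log2(RPKM + 0.5) scale was 0.23, the smallest of the 5 genes at 1 RPKM or more. Irx5 (ENSMUSG00000031737.11, 92357625 to 92376286, plus strand) had a lowest value of 0.166 RPKM, a median of 0.473 RPKM and a highest of 0.839 RPKM. Its reads numbered 22 in column 4, the lowest, and 113 in column 8, the highest. The exact Poisson 95% intervals of these extremes, which cover counting error only, were 0.104 to 0.252 RPKM and 0.692 to 1.01 RPKM and did not overlap. Irx3 thus stood at the higher level and Irx5 varied more between columns in relation to its level, with a coefficient of variation of 17.4% for Irx3 and 42.9% for Irx5.

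Pax6 and Nkx6-1 encode homeodomain factors of ventral and intermediate progenitor zones of the spinal cord. Nkx6-1 (ENSMUSG00000035187.10, chromosome 5, 101658139 to 101664996, minus strand) had a lowest value of 0.0704 RPKM, a median of 0.441 RPKM and a highest of 0.587 RPKM. Its lowest was column 7 with 6 reads, followed by column 5 with 16 reads, and its highest was column 8 with 59 reads. The coefficient of variation was 48.0%, against 15.8% from counting alone at its median of 40 reads. Pax6 (ENSMUSG00000027168.21, chromosome 2, 105668900 to 105697364, plus strand) had a lowest value of 0.106 RPKM, a median of 0.185 RPKM and a highest of 0.336 RPKM, from 25 to 74 reads. Column 1 was the highest and stood apart from the other 7 columns, which lay at 0.208 RPKM or less. Both genes were thus read in every column, at levels under 1 RPKM.

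Hes3 and Hes5 encode basic helix-loop-helix repressors that maintain neural progenitors, and Hes5 is a known target of Notch. They lie 2.67 megabases apart on chromosome 4. Hes5 (ENSMUSG00000048001.7, 154960923 to 154962371, plus strand) had a lowest value of 7.13 RPKM, a median of 16.5 RPKM and a highest of 23.4 RPKM, from 472 to 1669 reads. Columns 5, 6 and 7 held 7.13, 8.81 and 7.82 RPKM, column 3 held 13.4 RPKM, and the other 4 columns held 19.5 to 23.4 RPKM. Hes5 had the largest SD of the 10 genes, 0.67 on the log2(RPKM + 0.5) scale. Of all genes past the filter, 98.4% had a smaller SD than Hes5. The added 0.5 shrinks the SD of genes at low levels. By coefficient of variation, Nkx6-1 at 48.0%, Neurog2 at 108% and Sox1 at 110% stood above Hes5 at 43.3%, from far fewer reads. Hes3 (ENSMUSG00000028946.7, 152285972 to 152291662, minus strand) had a lowest value of 7.64 RPKM in column 6, a median of 10.7 RPKM and a highest of 13.7 RPKM in column 8, with an SD of 0.27. Across columns the level of Hes3 was spread evenly between these extremes, without the break seen for Hes5.

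Neurog2 encodes a proneural factor that starts neuron formation. Neurog2 (ENSMUSG00000027967.8, chromosome 3, 127633135 to 127635631, plus strand) had a median of 0.0309 RPKM and a highest value of 0.131 RPKM. It had 35 reads over all columns, 0 in column 1 and 16 in column 4, the highest. In 4 of the 8 columns it had at most 3 reads, so like Sox1 it was at or near the limit of detection.

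Foxb1 encodes a forkhead factor of the early neural plate and neural tube. Foxb1 (ENSMUSG00000059246.4, chromosome 9, 69757710 to 69760940, minus strand) had a lowest value of 4.84 RPKM, a median of 10.2 RPKM and a highest of 13.6 RPKM, from 747 to 2233 reads. Column 6 was the lowest and stood apart, since the other 7 columns lay between 9.02 and 13.6 RPKM. The SD was 0.43 on the log2(RPKM + 0.5) scale. An antisense gene, B230323A14Rik, overlaps Foxb1 and had a median of 0.665 RPKM. Genes on the opposite strand also overlap Pax6 (Pax6os1, median 0 RPKM), Irx3 (Irx3os) and Hes5 (Gm20421). For Irx3os and Gm20421 no level was available. Whether the counting used strand is not given in the sources used here, so reads of these overlapping genes may be included in the levels.

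**Figure D1:**
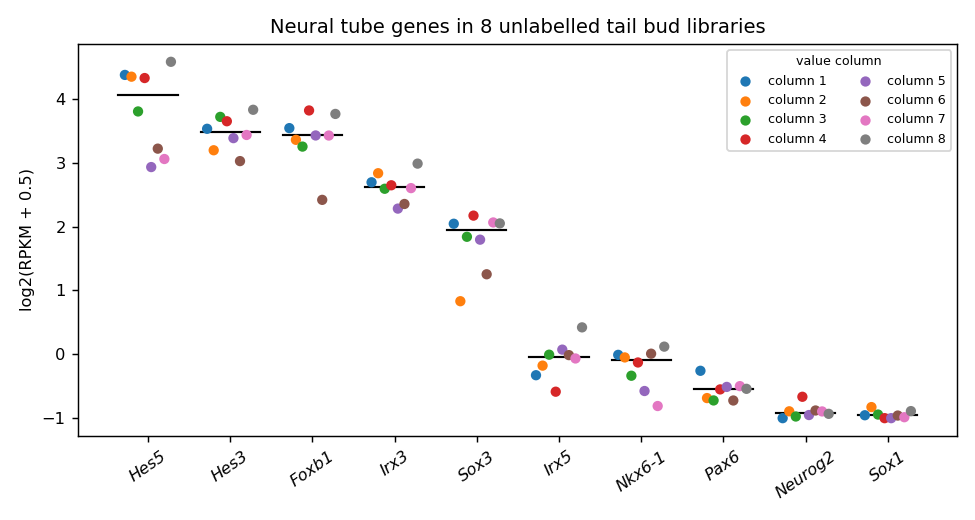
Level of each neural tube gene, in log2(RPKM + 0.5), with 1 point per unlabelled value column in column order and a line at the median of the 8 log2 values. Hes5 has 3 low columns, Sox3 has 2 and Foxb1 has 1, while Neurog2 and Sox1 lie near the value that 0 RPKM gives.

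In order of median level the genes ran Hes5, Hes3, Foxb1, Irx3, Sox3, Irx5, Nkx6-1, Pax6, Neurog2 and Sox1. The 9 neighbouring pairs in this order were compared within columns on the log2(RPKM + 0.5) scale by a two-sided exact sign-flip permutation test, with Benjamini-Hochberg adjustment over the 9 pairs. The order itself came from these values, so the sign of each difference was set beforehand, and the smallest p that 8 columns allow is 0.0078. Pairs separated in 8 of 8 columns (exact adjusted p = 0.0176 each) were Foxb1 over Irx3 with a mean difference of 0.75, Irx3 over Sox3 with 0.87, Sox3 over Irx5 with 1.84 and Pax6 over Neurog2 with 0.34. The largest of these steps on this scale, from Sox3 to Irx5, divided the 5 genes at 1 RPKM or more from the other 5. The added 0.5 shrinks steps between genes at low levels, such as Pax6 at a median of 0.185 RPKM and Neurog2 at 0.0309 RPKM. Steps above and below this division are therefore not on equal terms. Hes5 was above Hes3 in 6 of 8 columns, by 0.36 (exact adjusted p = 0.188), the exceptions being columns 5 and 7, in which Hes5 was low. Nkx6-1 was above Pax6 in 6 of 8 columns, by 0.34 (exact adjusted p = 0.0844). Hes3 and Foxb1, Irx5 and Nkx6-1, and Neurog2 and Sox1 changed places between columns, the first-named being higher in 4 of 8 columns in each pair (exact adjusted p = 0.430 each). Their differences were within the spread between columns.

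The spread of these genes between columns was read against all genes past the filter. Highest over lowest value, each with 0.5 RPKM added, passed 2-fold for Hes5, Foxb1 and Sox3, 3 of the 5 genes past the filter, against 10.7% of 12221 genes. The ratio was 3.13 for Hes5, 2.64 for Foxb1 and 2.53 for Sox3, against 1.75 for Hes3 and 1.63 for Irx3. The median SD of the 5 genes was 0.43, against 0.16 for all 12221 genes, and each of the 5 lay above that value for all genes. The median of the 5 is that of Foxb1, and without column 6 it was 0.22. The number of genes over 2-fold was 2 or 3 when single columns were left out. Whether genotype, dissection or tissue makeup moved these values was not tested, since the columns are unlabelled.

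**Figure D2:**
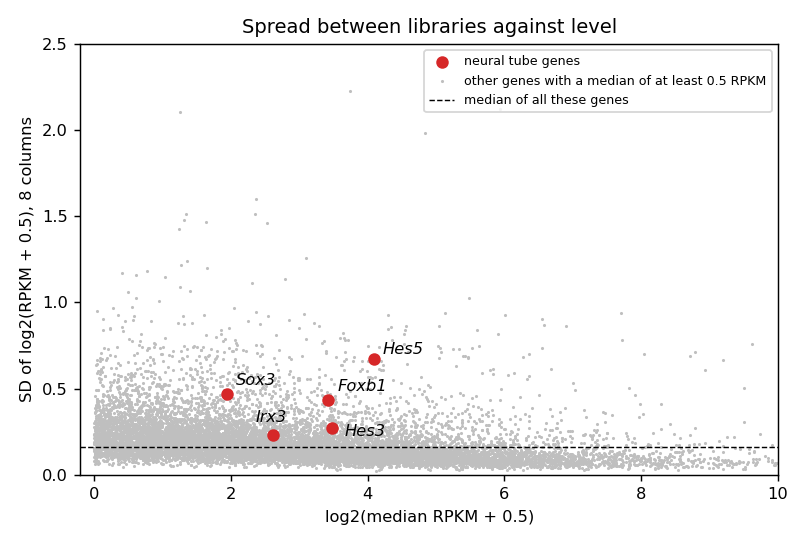
SD of log2(RPKM + 0.5) over the 8 columns against log2(median RPKM + 0.5) for genes with a median of at least 0.5 RPKM, with the 5 neural tube genes past this filter in red and the median SD of all these genes dashed. All 5 red points lie above the dashed line at 0.16, Hes5 highest at 0.67, and 67 other genes lie outside the axes.

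Levels of the 5 genes past the filter were compared with each other across the 8 columns, giving 10 pairs. All 10 Pearson correlations were positive, 3 had an unadjusted exact p under 0.05, and 1 passed after Benjamini-Hochberg adjustment. That pair was Irx3 and Hes5, with r = 0.85 (exact permutation p = 0.00303, adjusted p = 0.0303) and Spearman's rho = 0.90 (exact p = 0.00456, adjusted p = 0.0456). Without the 2 columns farthest from the median of Irx3, r was 0.73. Both genes were highest in column 8, and columns 5 and 6 were the lowest for Irx3 and among the 3 lowest for Hes5. Leaving out single columns gave r between 0.78 and 0.94. The exact adjusted p ran from 0.00595 to 0.173 and was over 0.05 without column 1, 4, 5, 6 or 8, so the call rested on having all of these columns.

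Sox3 and Hes3 had r = 0.77 (exact p = 0.0253, adjusted p = 0.0842) and Hes3 and Foxb1 r = 0.76 (exact p = 0.0201, adjusted p = 0.0842), both short of the threshold. Without the 2 farthest columns these fell to 0.25 and 0.26, so both rested on those columns. Hes3 and Hes5, relatives on the same chromosome, had r = 0.49 and rho = 0.50 (exact p = 0.216 each, adjusted p = 0.270 for r), and r = 0.13 without the 2 farthest columns. The neighbouring Irx3 and Irx5 had r = 0.12 and rho = -0.21 (exact p = 0.790 and 0.619). Without column 8, the highest for both, r was -0.57, so no relation was detectable between them. Over all 45 pairs of the 10 genes, 4 had an unadjusted exact p under 0.05 and 0 passed after adjustment. Sox1 and Sox3 had r = -0.64 (exact p = 0.0777, adjusted over 45 pairs p = 0.583), which is not read further because Sox1 had at most 3 reads in 5 columns.

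Sums of tail bud and presomitic mesoderm, hindgut, blood and endothelium, and extraembryonic endoderm markers were set beside the 5 genes. These 20 relations were chosen after the data were seen. Lists for somite, notochord and node, heart and neural crest are not among them, so the adjustment covers the chosen relations only. In 4 of the 20 relations the unadjusted exact p was under 0.05, and 1 passed adjustment. Foxb1 ran against the sum of 5 hindgut endoderm markers, with r = -0.90 (exact p = 0.00198, adjusted p = 0.0397) and rho = -0.74 (exact p = 0.0458, adjusted p = 0.198), and with r = -0.63 without the 2 farthest columns. The hindgut sum was mostly Krt8, at a median of 439 RPKM, and Cldn6, at 224 RPKM. Epcam had 49.0 RPKM, Trh 9.06 RPKM and Sox17 6.30 RPKM, so the sum says little about Trh or Sox17. Column 6, the lowest for Foxb1, had the highest hindgut sum, 996 RPKM against a median of 720 RPKM and a lowest value of 621 RPKM. The same column had the highest extraembryonic endoderm sum, 2663 RPKM, and the part of that tissue in the hindgut sum was not tested. The 10 tail bud and presomitic mesoderm markers also had their lowest sum in column 6, 384 RPKM against a median of 596 RPKM and a highest of 720 RPKM in column 4, where Foxb1 was highest. Foxb1 and this sum had r = 0.90 and rho = 0.69 (exact p = 0.00900 and 0.0694, adjusted p = 0.0900 and 0.198). Without the 2 farthest columns r fell to 0.40, so this relation rested largely on those columns. Taken as a ratio to the tail bud sum, Foxb1 had an SD of 0.22 on the log2 scale, against 0.43 as deposited. The same ratio left the SD at 0.57 for Hes5, against 0.67, and at 0.48 for Sox3, against 0.47. For Irx3 it was 0.225, against 0.231, and for Hes3 0.278, against 0.269. The other relations with an unadjusted exact p under 0.05 were with the sum of 6 blood and endothelium markers. The range of this sum came mostly from globin genes, with Hba-x at 1.19 to 405 RPKM and Hbb-bh1 at 3.66 to 469 RPKM. Kdr lay between 7.61 and 10.9 RPKM and Cdh5 between 0.805 and 1.74 RPKM, so the sum says little about Kdr or Cdh5. Sox3 and this sum had r = 0.79 and rho = 0.71 (exact p = 0.0156 and 0.0576, adjusted p = 0.104 and 0.198), and r = 0.83 without the 2 farthest columns. Hes3 and this sum had r = 0.72 and rho = 0.81 (exact p = 0.0451 and 0.0218, adjusted p = 0.225 and 0.198), and r = 0.95 without the 2 farthest columns. The part of tissue makeup in the levels of Foxb1, Sox3 and Hes3 was not tested.

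**Figure D3:**
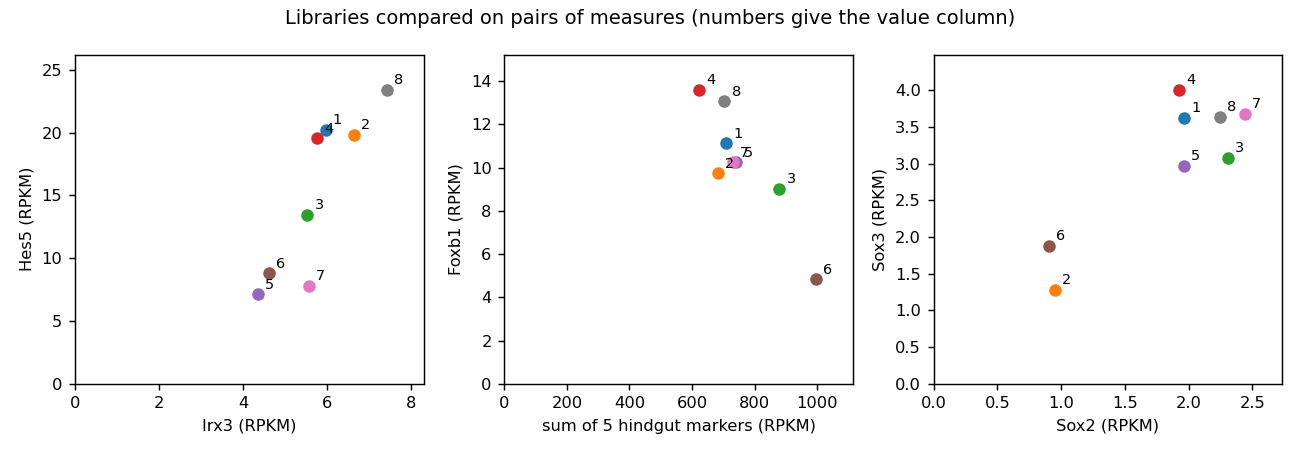
Hes5 against Irx3, Foxb1 against the summed level of 5 hindgut markers and Sox3 against Sox2, all in RPKM, with 1 numbered point per unlabelled value column. Column 8 is highest for both Irx3 and Hes5, column 6 joins the lowest Foxb1 with the highest hindgut sum of 996 RPKM, and columns 2 and 6 lie low for both Sox genes.

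Other genes of the neural tube were read from 6 lists, described by their medians over the 8 columns. Of 8 pan-neural genes, 7 had a median of at least 1 RPKM, led by Cdh2, which encodes N-cadherin, at 19.4 RPKM, Hes6 at 17.3 RPKM and Msi1, which encodes an RNA-binding protein of neural progenitors, at 9.10 RPKM. The lowest of this list were Sox2 at 1.96 RPKM and Sox21 at 0.125 RPKM. Bulk RNA does not show whether neural or other cells held these transcripts. Of 9 dorsal neural tube genes, 3 reached 1 RPKM and the other 6 lay under 0.1 RPKM. The 3 were the homeobox genes Msx1 at 106 RPKM and Msx2 at 55.5 RPKM, both also known from mesoderm, and Pax3 at 1.42 RPKM. Of 9 ventral genes, 2 reached 1 RPKM and 5 lay under 0.1 RPKM. Those 2 were Ptch1 at 8.30 RPKM and Gli1 at 1.58 RPKM, the receptor and an effector of Hedgehog signalling, which are not limited to neural cells. Zone factors of the ventral spinal cord such as Olig2 and Dbx1 were listed at a median of 0 RPKM. In these dorsal and ventral lists, most zone factors thus lay near 0 RPKM, while genes also used outside the neural tube were read at higher levels.

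Neuron differentiation genes reached 1 RPKM in 3 of 11 cases, and 7 lay under 0.1 RPKM. The 3 were the cytoskeletal genes Stmn2 at 10.2 RPKM and Tubb3 at 6.65 RPKM and the homeobox gene Isl1 at 5.81 RPKM, which is also known from mesoderm and endoderm. The proneural gene Neurog1 of this list had a median of 0.00526 RPKM, beside 0.0309 RPKM for its relative Neurog2. Of 11 genes of the forebrain to hindbrain, 3 reached 1 RPKM, among them Gbx2 at 13.7 RPKM and Pax2 at 1.42 RPKM, while 8 lay under 0.1 RPKM. Of 15 paralogs of the 10 genes, 6 reached 1 RPKM, led by the Hes genes Hes7 at 69.8 RPKM, a segmentation clock gene of the presomitic mesoderm, Hes1 at 52.7 RPKM and Hes6 at 17.3 RPKM. These 3 Hes paralogs stood above the medians of Hes5 at 16.5 RPKM and Hes3 at 10.7 RPKM, while a further Hes paralog, Hes2, was listed at a median of 0 RPKM. Neural crest markers were mixed: Sox10 and Foxd3 had medians of 0.00691 RPKM and 0 RPKM, while Tfap2a had 0.673 RPKM and Ets1 3.61 RPKM.

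**Figure D4:**
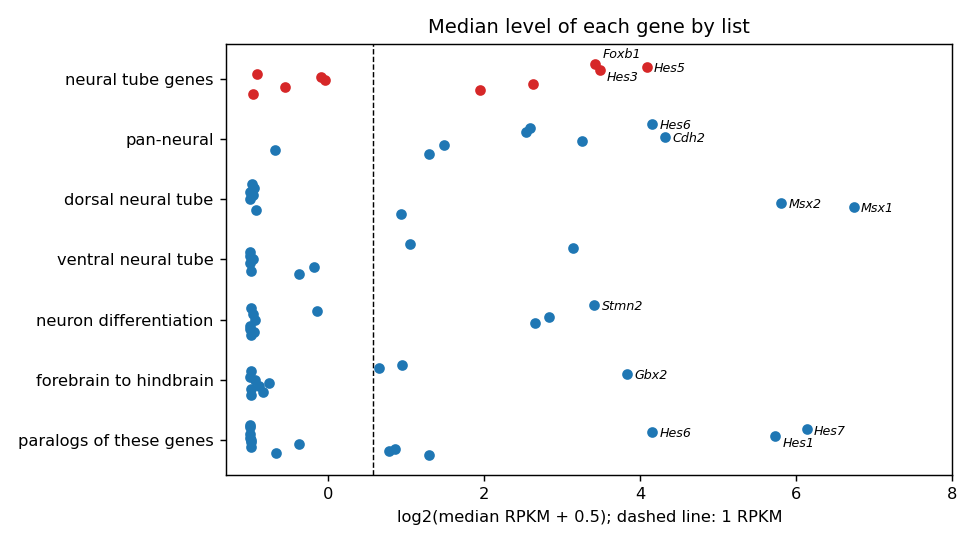
Median level of each gene over the 8 columns, in log2(median RPKM + 0.5), for the 10 neural tube genes in red and 6 companion lists in blue, with names for genes at 10 RPKM or more and a dashed line at 1 RPKM. The pan-neural list has 7 of 8 genes right of the line, while the dorsal, ventral, neuron and brain lists have most of their genes near 0 RPKM.

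The mean centred profile of the 5 genes past the filter was compared with 12161 genes outside the lists over the 8 columns. As a description, 10 of these had r over 0.9. The 5 most alike were Btg1 with r = 0.98 and a median of 4.54 RPKM, Nrarp with r = 0.97 and 10.4 RPKM, Elavl2 with r = 0.97 and 1.45 RPKM, Acot7 with r = 0.95 and 31.5 RPKM, and 2500002B13Rik with r = 0.94 and 1.91 RPKM. They were picked as the highest of all genes compared. The columns differed in their sums of blood and extraembryonic endoderm markers, and the part of tissue makeup in these profiles was not tested.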

How the data were processed

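Polyadenylated RNA of mouse tail buds was sequenced after Smart-seq2, per the labels' protocols. The deposited table holds RPKM values made by the authors, a unit given by the table's own name. Per the submitters' processing notes, TopHat, DESeq2 and the build mm10 were used, with no version or role stated. For the annotation, the counter and the strand setting, nothing is given in the sources used here. All 8 value columns were used, as 8 libraries of 1 tissue, and 0 other columns of values were present. The planned limma test of Epop knockout against wild-type, and any count test between genotypes, was not run because the columns have no names.

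Reads were recovered as whole multiples of the smallest step per gene, whole within 0.01 reads for 100% of values of 18115 genes. The RefSeq length of Sox3 was used for the sequencing depth that the RPKM values imply, and not for the reads or their totals. Single reads cannot be told from read pairs. Totals leave out 1240 genes above 0 in 1 column. Median-of-ratios factors of the deposited values were 1.01 in all columns.

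Tests used log2(RPKM + 0.5), a filter at a median of 0.5 RPKM, Python 3.11.15, numpy 2.4.6, pandas 2.3.3 and scipy 1.17.1, and were tried on simulated data. The check for a column far from the others used RPKM without a log. Gene positions come from GENCODE M21. Named were all 10 genes, up to 3 genes per companion list with the highest medians of at least 1 RPKM, and the 5 genes with the most similar profile. A gene that this rule names is not reported here. Other list genes were named after their values were seen. The 10 genes and the lists were chosen with earlier results of these data known. Alternatives varied the pseudocount, filter and scaling and left out each column.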

Additional observations from a re-analysis of the deposited data

Results flagged for a closer look

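Of the 10 genes checked for a column far from the others, 2 had one. The check used RPKM and not the log2 scale. Chance flags about 1 in 20 groups if values follow a normal distribution, which values from few reads need not do. The gap to the next column was 0.556 of the range for Pax6 and 0.667 for Neurog2, against a cutoff of 0.526. Pax6 thus passed by a narrow margin. Pax6 had its highest value, 0.336 RPKM from 74 reads, in column 1, while the other 7 columns lay between 0.106 and 0.208 RPKM. Column 1 also had the highest sum of blood and endothelium markers, 927 RPKM against a median of 91.4 RPKM, and its part in the level of Pax6 was not tested. Neurog2 had its highest value, 0.131 RPKM from 16 reads, in column 4, while the other 7 columns had at most 5 reads each.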

How the results depend on the processing

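Of 136 recomputed values, 116 counted as the same. Some of these could hardly differ, since median-of-ratios factors were equal in all columns and the r of a named pair does not depend on the filter. Correlations had to keep their direction and their side of the threshold. The median spread had to stay within the spread of the genes, and counts near the main value. By this loose rule 2 or 4 genes over 2-fold, against 3, counted as the same. So did r = -0.0155 for Sox1 and Sox3 without column 2, against -0.639. With column sums made equal, which roughly doubles the values, 7 genes passed the filter, the number over 2-fold was 5, against 17.1% of all genes at that setting, and 0 of 21 pairs passed adjustment. Without a filter, 0 of 45 pairs passed. For Irx3 and Hes5 the exact adjusted p was 0.0734 with equal sums and 0.136 without a filter. In both settings more pairs were tested. Leaving out single columns gave a median spread of 0.220 to 0.467, 0 to 2 passing pairs, r of -0.816 to -0.0155 for Sox1 and Sox3, and r of -0.565 to 0.324 for Irx3 and Irx5. The Irx3 and Irx5 value turned negative, -0.565, without column 8, and the cause was not tested. Median-of-ratios scaling changed no call, since its factors were already equal. With total reads as denominator, chosen after seeing the data, Irx3 and Hes5 had r = 0.87 and an exact adjusted p of 0.0362. No paired analysis was possible because the columns carry no number and the groups share only 1 number, 11. Depth limits Sox1 and Neurog2, which had at most 3 reads in 5 and in 4 of the 8 columns, and intervals cover counting error only.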

Other observations

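Sox2, the third SoxB1 gene, was set beside Sox3 as 1 of 9 relations between a gene described above and a paralog, chosen after the data were seen. Sox2 had 0.949 RPKM in column 2 and 0.902 RPKM in column 6, against 1.92 to 2.44 RPKM in the other 6 columns. Sox3 was low in the same columns, with 1.28 and 1.88 RPKM, against 2.97 to 4.00 RPKM in the other 6. Since the columns fall apart in this way, no pooled correlation is given. Of the 9 paralog relations, 1 had an unadjusted exact permutation p under 0.05 and 0 passed after Benjamini-Hochberg adjustment.

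Column 6 was low for several of the genes, and other low columns differed between them. Hes5 was low in columns 5, 6 and 7, Sox3 in columns 2 and 6, and Foxb1 in column 6, which was also the lowest for Hes3. Column 6 also had the highest extraembryonic endoderm sum, 2663 RPKM, and column 2 the lowest, 651 RPKM, so Sox3 was low at both ends of that sum. Columns 2 and 6 were the lowest for Hba-x, an embryonic globin gene of the blood list, with 1.57 and 1.19 RPKM against at least 11.97 RPKM in the other 6 columns, and the part of blood in the level of Sox3 was not tested.

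Epop lay between 16.3 and 28.3 RPKM over the 8 columns. No column was at or near 0 for it, whichever columns hold the Epop knockout libraries.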
